A study of Mus musculus with 6 samples.

Results

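The S100 genes described here are 8 members of a family of small calcium-binding proteins, S100a1, S100a4, S100a6, S100a8, S100a9, S100a10, S100a11 and S100a13, taken by name from a table of 78317 genes. RNA came from hearts of 11-month-old animals, 3 with a cardiomyocyte-specific deletion of Ybx1 (Ybx1cmKO, called knockouts here) and 3 littermate controls. Ybx1 encodes an RNA- and DNA-binding protein with a cold-shock domain, and the comparison asks which transcripts of the heart differ when cardiomyocytes lack it. The sources used here do not give the promoter that drives the deletion, the alleles of the controls or the sex of the mice. All 8 members were in the table and all 8 passed the filter on low values (at least 1 CPM, the unit of counts relative to the library total, in at least 3 of 6 libraries). S100a8, the lowest member, reached 1 CPM in 5 of the 6 libraries and each other member in all 6.

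S100 proteins are short proteins with a pair of calcium-binding EF-hand loops. They act as dimers without enzyme activity of their own, and calcium binding opens a surface that docks onto target proteins. In the heart S100A1 is the form of the cardiomyocyte, where it binds the ryanodine receptor and the calcium pump of the sarcoplasmic reticulum. S100A4, S100A6, S100A10 and S100A11 are known from fibroblasts, vessels and many other cells, and S100A8 with S100A9 forms calprotectin, a main cytosolic protein of neutrophils. Most S100 genes of the mouse lie side by side on chromosome 3. In GENCODE M21, S100a1 and S100a13 stand head to head on opposite strands with 42 bases between them, and S100a8 and S100a9 are neighbours on opposite strands with a gap of 22596 bases.

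The 250 bases upstream of the RefSeq start (build GRCm38.p6, 5′ to 3′ in the direction of the gene) are shown for S100a8 and S100a9, whose knockout values lay above all control values, and for S100a4, which has the same core motif as S100a8 and did not separate the groups. Capitals mark matches to TATAAA (the TATA box), TGANTCA (AP-1), TTGCNNAA (C/EBP core) or TTCNNNGAA (STAT), searched on both strands.
S100a8, chr3:90668821-90669070, plus strand: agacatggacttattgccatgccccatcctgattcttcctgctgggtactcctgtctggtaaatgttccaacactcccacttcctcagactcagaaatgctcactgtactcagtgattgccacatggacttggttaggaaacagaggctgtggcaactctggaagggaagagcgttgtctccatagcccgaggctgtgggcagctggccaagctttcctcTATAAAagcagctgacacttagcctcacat
S100a9, chr3:90695722-90695971, minus strand: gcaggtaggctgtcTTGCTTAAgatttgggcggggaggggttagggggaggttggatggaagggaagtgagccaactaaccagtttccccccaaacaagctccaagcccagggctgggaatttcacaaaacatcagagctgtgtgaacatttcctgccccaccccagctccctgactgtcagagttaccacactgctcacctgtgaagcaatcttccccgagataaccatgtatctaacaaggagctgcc
S100a4, chr3:90603520-90603769, plus strand: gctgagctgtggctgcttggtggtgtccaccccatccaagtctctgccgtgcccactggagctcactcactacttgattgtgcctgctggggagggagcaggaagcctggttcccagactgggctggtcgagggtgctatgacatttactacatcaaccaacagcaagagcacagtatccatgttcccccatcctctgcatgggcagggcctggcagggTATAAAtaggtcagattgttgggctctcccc

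The TATAAA of S100a8 begins 30 bases and that of S100a4 31 bases before the start, while the S100a9 window holds no TATAAA and 1 C/EBP core match, 236 bases before the start. S100a11 had 2 TGAGTCA matches, and the windows of S100a1, S100a6 and S100a13 had no match to any of the 4 motifs. Of 32841 promoter windows of the same length, 12.4% hold TATAAA, 9.57% the C/EBP core, 6.75% the AP-1 and 7.02% the STAT motif. These matches describe the letters of the windows only.

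Library totals ran from 12270796 to 15141525 counts. The deleted gene, Ybx1, was at 810 to 895 normalised CPM in controls and 110 to 203 CPM in knockouts, or 18.9% of the control mean (edgeR log2 fold change -2.40, adjusted p = 0.148). Knockout heart 3 stood apart from the other 5 libraries, with 10.7% of its counts in mitochondrial rRNA against 20.5% to 26.3%, and with Malat1, a nuclear RNA, at 668 CPM as deposited against 3317 to 7923 CPM. Lung epithelial markers were at 0 counts in every library (4 of 4 genes), and the 8 ventricular cardiomyocyte markers summed to 20946 to 25066 CPM in controls and 17808 to 24226 CPM in knockouts. Over all 13717 genes tested, edgeR's quasi-likelihood test called 0 genes at a Benjamini-Hochberg adjusted p of 0.05 (0%), and DESeq2 called 15 (0.109%). An unadjusted edgeR p below 0.05 was found for 705 genes (5.14%), 369 higher and 336 lower in knockouts, and without scaling factors between libraries for 659, 491 higher and 168 lower.

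Per kilobase of exon (GENCODE M21 gene models), S100a1 was the highest member in controls at 334 ± 71.5 normalised CPM per kilobase (SD, n = 3). S100a6 followed at 66.6 ± 9.02 and S100a10 at 63.02 ± 6.57, and the control values of these neighbours overlapped. Next came S100a13 at 37.8 ± 4.37, S100a11 at 19.7 ± 2.90 and S100a4 at 9.83 ± 0.229 CPM per kilobase, each step without overlap in either group. The calprotectin genes were lowest, with S100a9 at 4.16 ± 1.34 and S100a8 at 1.81 ± 0.935 CPM per kilobase, values that overlapped between hearts although S100a9 exceeded S100a8 within each of the 6 libraries. In knockout hearts the order of the means was the same, and there the values of S100a4 and S100a9 overlapped. S100a1 made up 52.9% to 66.7% of the summed level of the 8 genes per kilobase in the 6 libraries, and S100a8, with the lowest mean, 0.236% to 1.04%.

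**Figure D1:**
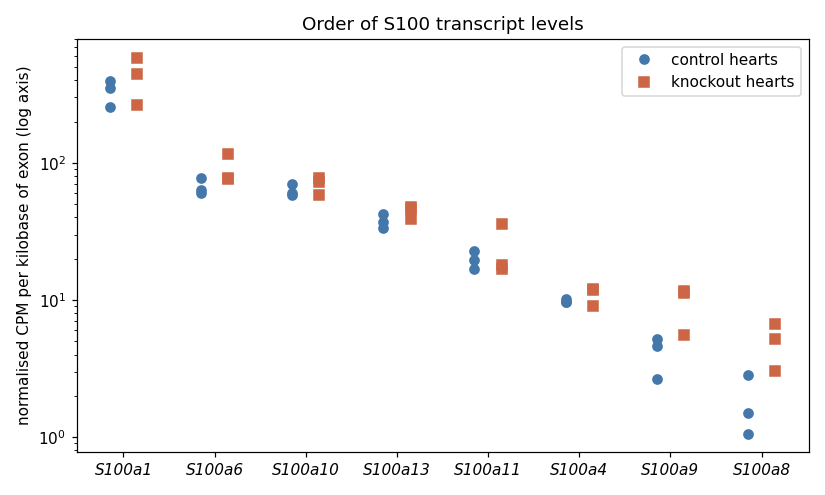
Level of each S100 gene in normalised CPM per kilobase of exon on a log axis, with 1 point per heart (circles control, squares knockout, 3 each). S100a1 lies above all other members in every heart, S100a6 and S100a10 overlap, and S100a8 and S100a9 are lowest.

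None of the 8 members passed edgeR's test over all genes. All 8 had a fold change above 0 (51.1% of all tested genes did), with a median log2 fold change of 0.31 beside 0.01 for all tested genes. Without knockout heart 3 the median of the members was 0.13, and 7 of 8 lay above 0. An unadjusted p below 0.05 was found for S100a8 and S100a9, 2 of 8 members, both higher in knockouts (2.69% of all genes were past this limit in that direction and 2.45% in the other). The knockout values lay above all control values in the same 2 members (6.26% of all genes) and below them in 0 (5.82% of all genes). In these bulk samples a change in the number of cells of a type and a change in RNA per cell cannot be told apart.

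**Figure D2:**
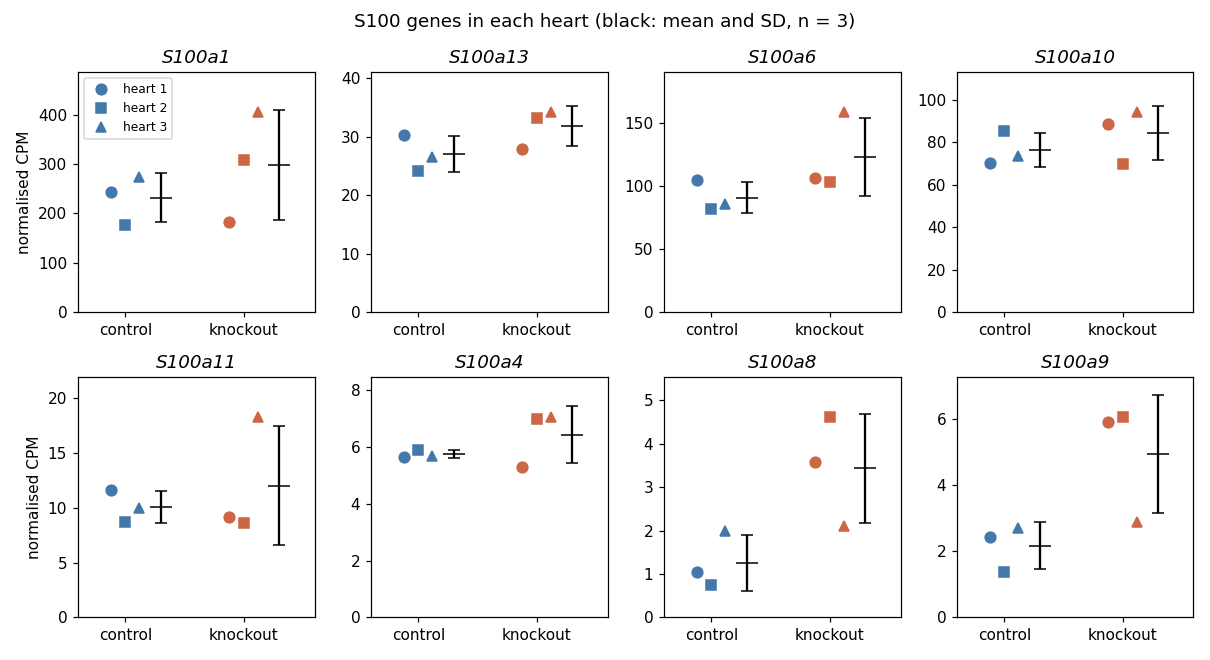
Normalised CPM of each S100 gene in each heart (symbols number the hearts within a group), with the mean and SD of 3 hearts beside them in black. S100a8 and S100a9 show no overlap between groups, and knockout heart 3 is the highest point for the other 6 genes.

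S100a1 encodes the S100 form of the cardiomyocyte. It was at 243, 177 and 275 normalised CPM in controls (hearts 1, 2 and 3, the order kept below) and at 182, 308 and 405 CPM in knockouts. The groups overlapped, with knockout heart 1 close to the lowest control and knockout heart 3 highest of all. The means were 231 ± 49.6 and 299 ± 112 CPM (SD, n = 3 each), and edgeR gave a log2 fold change of 0.37 (SE 0.31, 95% interval -0.34 to 1.07, adjusted p = 0.706). This value was 0.08 without knockout heart 3, 0.20 without control heart 2 and 0.62 without knockout heart 1.

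Partners of S100A1 had values on both sides of 0. The 6 genes on this list gave 4 values above and 2 below 0 (median 0.30), 0 past the adjusted threshold and 1 with an unadjusted p below 0.05. That gene was Ttn, the giant spring protein titin, at 4686, 3620 and 3993 CPM in controls and 2581, 3060 and 1267 CPM in knockouts, without overlap (edgeR log2 fold change -0.83, adjusted p = 0.694). Ryr2, the calcium release channel, was at 848 ± 51.04 CPM in controls and 708 ± 41.6 CPM in knockouts, also without overlap (SD, n = 3 each; -0.26, edgeR adjusted p = 0.696). Atp2a2, the calcium pump, was at 1705 ± 364 and 2339 ± 882 CPM (0.46, edgeR adjusted p = 0.694), with 3340 CPM in knockout heart 3. As for S100a1, the highest Atp2a2 value of the 6 hearts was in knockout heart 3, while Ttn was lowest there. Capza2, a subunit of the actin capping protein CapZ, was at 74.1 ± 11.2 and 101.4 ± 29.1 CPM (SD, n = 3 each; 0.45, edgeR adjusted p = 0.694).

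S100a13, the head-to-head neighbour of S100a1, takes part in the release of the growth factor FGF1, which lacks a signal peptide. It was at 30.3, 24.1 and 26.5 CPM in controls and 27.9, 33.2 and 34.2 CPM in knockouts. Knockout hearts 2 and 3 lay above every control, and knockout heart 1 lay within the control range. The edgeR log2 fold change was 0.23 (SE 0.18, interval -0.18 to 0.65, adjusted p = 0.698), and it was 0.15 without control heart 2 and 0.38 without scaling factors. Fgf1 itself was at 51.9 ± 2.93 CPM in controls and 48.2 ± 10.2 CPM in knockouts (SD, n = 3 each). Syt1, the synaptotagmin of the same release complex, was below the filter on low values.

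S100a6, calcyclin, is abundant in fibroblasts and smooth muscle and binds annexins and the ubiquitin-linked protein CacyBP. It was at 105, 82.1 and 85.9 CPM in controls and at 107, 104 and 159 CPM in knockouts. The groups overlapped by a narrow margin, since control heart 1 exceeded knockout heart 2. The means were 91.02 ± 12.3 and 123 ± 31.1 CPM (SD, n = 3 each; edgeR log2 fold change 0.44, SE 0.23, interval -0.08 to 0.95, adjusted p = 0.694), and without knockout heart 3 the fold change was 0.21. Its 3 partner genes all had values above 0 (median 0.52), with 0 past the adjusted threshold. Among them Anxa11, annexin A11, was at 8.91 ± 1.21 and 12.8 ± 2.88 CPM (SD, n = 3 each; log2 fold change 0.52, unadjusted p = 0.0417, edgeR adjusted p = 0.694), without overlap. Cacybp was at 22.9 ± 3.79 and 33.5 ± 10.1 CPM (SD, n = 3 each; 0.55, edgeR adjusted p = 0.694).

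S100a10, or p11, is the member that has lost calcium binding and forms a stable complex with annexin A2 at the cell membrane. It was at 70.3, 85.4 and 73.4 CPM in controls and 88.5, 70.03 and 94.4 CPM in knockouts. The groups overlapped widely, since knockout heart 2 was the lowest of all 6. The log2 fold change was 0.14 (SE 0.19, interval -0.30 to 0.58, edgeR adjusted p = 0.788). It was 0.05 without knockout heart 3, 0.08 without control heart 1, 0.22 without control heart 2, 0.25 without knockout heart 2 and 0.33 without scaling factors. Its partner Anxa2 was at 22.6 ± 2.89 CPM in controls and 24.3 ± 2.48 CPM in knockouts (SD, n = 3 each; 0.10, edgeR adjusted p = 0.839).

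S100a11, calgizzarin, binds annexin A1 and is expressed in many cell types. It was at 11.6, 8.66 and 9.92 CPM in controls and 9.15, 8.62 and 18.2 CPM in knockouts. Knockout heart 3 alone was high, at 1.90 times the mean of the other 5 hearts, while knockout heart 1 lay within the control range and knockout heart 2 just below it. The log2 fold change of 0.26 (SE 0.31, interval -0.44 to 0.95, edgeR adjusted p = 0.764) turned to -0.18 without knockout heart 3. It was 0.15 without control heart 2, 0.42 without knockout heart 1, 0.43 without knockout heart 2 and 0.45 without scaling factors. The 5 genes listed as partners of S100a10 and S100a11 gave 4 values above and 1 below 0 (median 0.10), and 4 of the 5 were also highest in knockout heart 3. Anxa1, annexin A1, was at 9.70 ± 0.967 and 13.6 ± 3.31 CPM and Anxa5, annexin A5, at 17.3 ± 2.26 and 24.5 ± 11.2 CPM (SD, n = 3 each; edgeR adjusted p = 0.694 for each), and no gene of this list passed the adjusted threshold.

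S100a4, also known as fibroblast-specific protein, binds nonmuscle myosin and is found in fibroblasts and in some leukocytes. It was at 5.65, 5.90 and 5.69 CPM in controls, the tightest set of values of any member, with a coefficient of variation of 2.33%. The exact 95% Poisson intervals of these values (counting error only) were 4.40 to 7.13, 4.54 to 7.53 and 4.55 to 7.02 CPM. These intervals are much wider than the spread of the values, so the tightness cannot be taken as a trait of the gene. The knockout hearts had 5.28, 6.96 and 7.04 CPM, so that knockout heart 1 was lowest and the other two highest of all 6. The log2 fold change was 0.16 (SE 0.20, interval -0.30 to 0.62, edgeR adjusted p = 0.774). It was 0.09 without knockout heart 2 or 3, 0.29 without knockout heart 1 and 0.32 without scaling factors. Of its 5 partner genes 2 had values above and 3 below 0 (median -0.19, 0 past the adjusted threshold). Myh10, a nonmuscle myosin heavy chain, was at 14.2 ± 0.618 and 11.4 ± 1.51 CPM, without overlap, and Trp53, which encodes the tumour suppressor p53, at 11.01 ± 1.34 and 13.3 ± 1.68 CPM (SD, n = 3 each; edgeR adjusted p = 0.694 for each). Counts of S100a4 held fractions of a read in 3 libraries, those of S100a10 in 2 and those of S100a11 in 5, so these levels are uncertain to the extent that reads were shared. In GENCODE M21 S100a4 shares 302 exonic bases with Gm42674 on the same strand (13 to 32 counts per library), and S100a11 has a pseudogene, S100a11-ps (1 to 5 counts).

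Knockout heart 3 was the highest of the 6 hearts for 6 of the 8 members, S100a1, S100a4, S100a6, S100a10, S100a11 and S100a13. Over all tested genes the share was 33.9%. In a split chosen after the data were seen it was 34.2% among the 13185 tested genes with a known exon length and 46.1% among the 1466 tested genes whose exons sum to no more than 1367 bases, the length of the longest member. Its value relative to the mean of the other 5 hearts ran from 1.19 times for S100a4 to 1.90 times for S100a11. In the same heart the 10 fibroblast markers summed to 2401 CPM, against 1494 to 1875 CPM in controls and 1816 CPM in the lowest knockout heart, and 6 of the 10 were highest there. Of this sum Gsn gave 1490 CPM, against 809 to 1054 CPM in controls. Dcn was at 528 CPM there and at 689 CPM in knockout heart 1. The 13 monocyte and macrophage markers summed to 173 CPM in knockout heart 3, against 102 to 126 CPM in controls and 126 CPM in the lowest knockout heart. Lyz2 alone gave 81.6 CPM of that sum, and 4 of the 10 tested markers were highest in this heart. The part of these markers, of transcript length and of the low mitochondrial rRNA share in the S100 values of this heart was not tested.

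**Figure D3:**
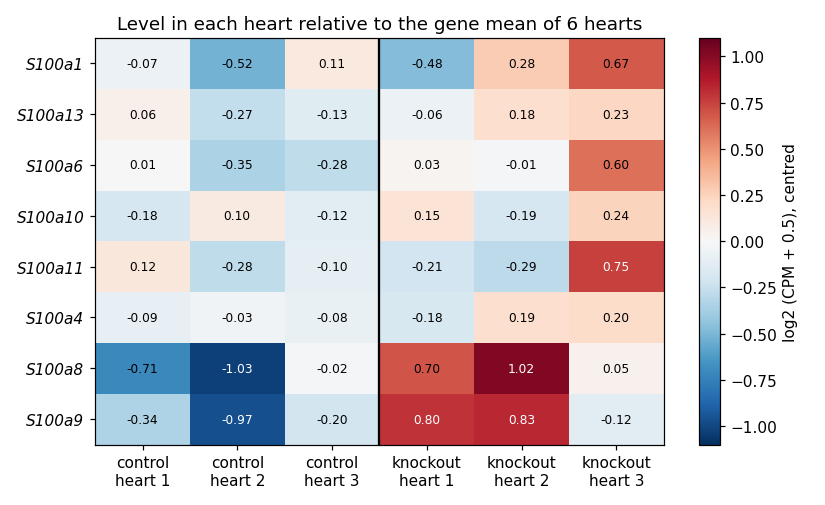
Log2 of normalised CPM plus 0.5 of each S100 gene in each heart, centred on the gene's mean over the 6 hearts (red above, blue below). Knockout heart 3 is the highest column for the upper 6 genes, whereas S100a8 and S100a9 peak in knockout hearts 1 and 2.

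S100a8 encodes the smaller subunit of calprotectin, which is released by activated neutrophils and signals through TLR4 and RAGE. It had 13, 8 and 30 counts in controls and 53, 61 and 38 counts in knockouts. These are 1.05, 0.737 and 1.98 normalised CPM and 3.59, 4.61 and 2.11 CPM. Every knockout heart exceeded every control, but by a small margin between knockout heart 3 and control heart 3, whose exact 95% Poisson intervals (1.49 to 2.89 and 1.34 to 2.83 CPM, counting error only) overlapped. The means were 1.26 ± 0.649 and 3.44 ± 1.26 CPM (SD, n = 3 each), a 2.74-fold ratio. The edgeR log2 fold change was 1.40 (SE 0.43, interval 0.41 to 2.39, unadjusted p = 0.0108, adjusted p = 0.694).

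S100a9 encodes the larger subunit. It had 30, 15 and 41 counts in controls and 87, 80 and 52 counts in knockouts, or 2.42, 1.38 and 2.71 CPM and 5.89, 6.05 and 2.88 CPM. The pattern was that of S100a8, with knockout hearts 1 and 2 high and knockout heart 3 just above control heart 3. The means were 2.17 ± 0.699 and 4.94 ± 1.79 CPM (SD, n = 3 each), a 2.28-fold ratio, and edgeR gave a log2 fold change of 1.16 (SE 0.37, interval 0.32 to 2.00, unadjusted p = 0.0126, adjusted p = 0.694). For each gene the exact two-sided permutation p over the 6 hearts was 0.1, the smallest that 3 against 3 can give. The knockout values of both genes stayed above all control values under each of the 3 other scalings tried.

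Leaving out 1 heart moved the S100a8 log2 fold change between 1.12 (without knockout heart 2) and 1.92 (without control heart 3), and that of S100a9 between 0.92 (without control heart 2) and 1.43 (without knockout heart 3). Without knockout heart 3, which was lowest of its group for both genes, edgeR's unadjusted p was 0.00103 for S100a8 and 4.55e-04 for S100a9 (adjusted p = 0.616 and 0.331). Without knockout heart 2 the unadjusted p of edgeR was 0.0505 and 0.0537. With no filter on low values edgeR gave S100a8 an adjusted p of 0.0367 and S100a9 one of 0.0638 over 33251 genes.

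**Figure D4:**
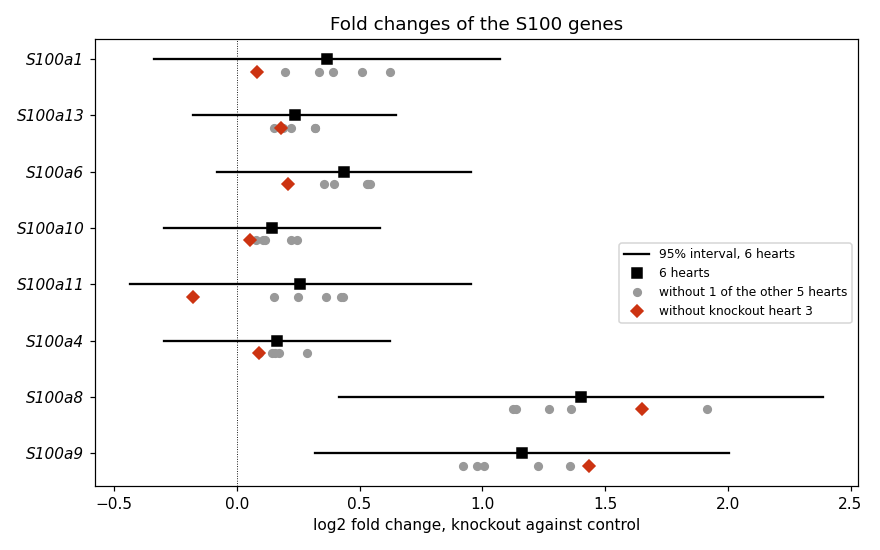
Log2 fold change of each S100 gene, knockout against control, from edgeR (black square, with its 95% interval) and from fits that left out 1 heart (grey circles, red diamond for knockout heart 3). The intervals of S100a8 and S100a9 lie above 0, those of the other 6 genes include 0, and S100a11 crosses 0 without knockout heart 3.

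The ratio of the subunits did not differ between groups beyond the spread of the hearts. The log2 ratio of S100a8 to S100a9 counts (0.5 added to each) was -1.18, -0.87 and -0.44 in controls and -0.71, -0.39 and -0.45 in knockouts. The groups overlapped, and the difference of 0.31 between the means (-0.83 ± 0.37 in controls and -0.52 ± 0.17 in knockouts, SD, n = 3 each) gave an exact two-sided permutation p of 0.3, and lay between 0.14 and 0.51 when 1 heart was left out.

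Other neutrophil genes were near the limit of detection in these hearts. Of 18 neutrophil markers 5 had 0 counts in all 6 libraries (Mpo, Elane, Ltf, Ctsg and Cxcr1), and Ly6g, the defining surface marker, had at most 1 count in any. Only the gelatinase gene Mmp9 passed the filter, at 1.21, 0.737 and 0.397 CPM in controls and 2.37, 0.832 and 1.89 CPM in knockouts (edgeR log2 fold change 1.14, adjusted p = 0.694). Cxcr2, the chemokine receptor of neutrophils, had 2, 2 and 2 counts in controls and 6, 6 and 1 in knockouts, and Retnlg, a resistin-like gene of neutrophils, had 2, 1 and 2 counts and 4, 7 and 2 counts. The collagenase gene Mmp8 had 1, 0 and 3 counts in controls and 4, 6 and 2 in knockouts. In these 3 genes, as in S100a8 and S100a9, knockout heart 3 had the lowest count of the knockout hearts, at counts too low for a test. The same held for Lcn2 and Il1r2. Knockout heart 3 did not have the lowest count for Mmp9, Csf3r, Padi4, Ngp or Camp.

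For Lcn2, Csf3r and Il1r2 the highest control count exceeded the highest knockout count. Lcn2 had 3, 8 and 9 counts in controls and 6, 6 and 4 in knockouts, Csf3r 1, 6.5 and 7 against 6.5, 5 and 6, and Il1r2 1, 0 and 6 against 2, 5 and 0. Padi4, Prtn3, Stfa2l1, Ngp and Camp had at most 3 counts in any library. Of these, Padi4 had 0, 1 and 2 counts in controls and 2, 3 and 3 in knockouts, and Camp 0, 0 and 0 against 1, 0 and 3. Prtn3 went the other way, with 2, 0 and 3 counts against 3, 0 and 0. Summed over the 18 markers, the level was 2.18 to 2.78 CPM in controls and 3.16 to 4.81 CPM in knockouts, without overlap and highest in knockout heart 1. Without Mmp9, which was left out after its values were seen, the sum was 0.968, 1.75 and 2.38 CPM in controls and 2.44, 3.03 and 1.27 CPM in knockouts, and the groups overlapped. How far the number of neutrophils accounts for the S100a8 and S100a9 values was not tested.

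**Figure D5:**
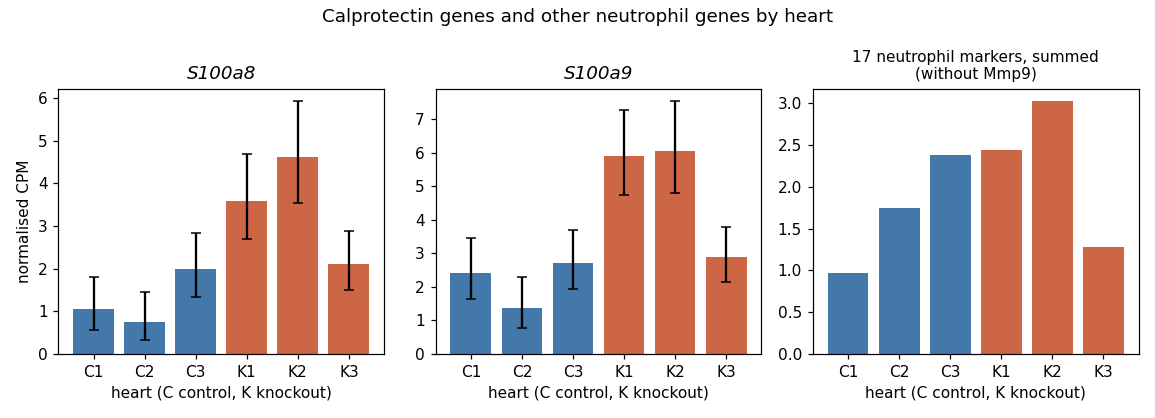
Normalised CPM of S100a8 and S100a9 (bars, with exact 95% Poisson intervals of the counts) and the summed CPM of 17 neutrophil markers without Mmp9, in control hearts C1 to C3 and knockout hearts K1 to K3. All panels have their highest bar in K2 and a lower bar in K3 than in K1 and K2. With Mmp9 the sum was highest in K1 (4.81 CPM, against 3.86 CPM in K2).

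Receptors of extracellular S100 proteins gave no call. Of 11 genes on the list 10 were tested, with 6 values above and 4 below 0 (median 0.06) and 0 at an unadjusted p below 0.05. Tlr4, the receptor of calprotectin, was at 4.03, 3.87 and 4.03 CPM in controls and 4.88, 4.84 and 4.27 CPM in knockouts, without overlap (edgeR log2 fold change 0.23, interval -0.24 to 0.69, adjusted p = 0.713). Ager, which encodes RAGE, had 0 to 3 counts per library and was not tested. Cd14, a co-receptor of TLR4, was at 1.83 ± 0.698 and 3.02 ± 0.846 CPM, and Cd36, a scavenger receptor, at 489 ± 63.1 and 636 ± 178 CPM (SD, n = 3 each; edgeR adjusted p = 0.694 for each).

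Of the 10 other S100 genes 5 had 0 counts in all libraries (S100a2, S100a3, S100a5, S100a7l2 and S100z). S100g, S100a14 and S100a7a had at most 4 counts in any library. S100a16, a broadly expressed member, was at 26.7, 22.2 and 20.8 CPM in controls and 29.1, 23.5 and 31.7 CPM in knockouts (edgeR log2 fold change 0.27, adjusted p = 0.694), with its highest value in knockout heart 3 like the members above. S100b, a gene of Schwann cells, was at 2.80 ± 1.01 and 2.09 ± 0.589 CPM (SD, n = 3 each; -0.40, edgeR adjusted p = 0.710).

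Among markers of the other cell types of the heart, 0 genes passed the adjusted threshold. Values above 0 were found for 10 of 10 tested fibroblast markers (median log2 fold change 0.35), 8 of 10 monocyte and macrophage markers (0.36), 6 of 8 endothelial markers (0.05), 5 of 5 erythroid markers (0.37), 4 of 8 ventricular cardiomyocyte markers (-0.08), 1 of 7 smooth muscle and pericyte markers (-0.15), 1 of 3 Schwann cell markers (-0.40) and 0 of 1 epicardial marker. The cardiomyocyte marker with the smallest p was Myh6, the adult cardiac myosin heavy chain, at 5474 ± 525 CPM in controls and 3521 ± 628 CPM in knockouts (SD, n = 3 each; edgeR log2 fold change -0.64, adjusted p = 0.694). The mean levels in controls and knockouts of other genes with a small p in each list were 33.3 and 41.9 CPM for the complement gene C1qa and 6.16 and 8.21 CPM for the receptor gene Csf1r (macrophages), and 3.67 and 6.58 CPM for the transcription factor gene Tcf21 and 73.001 and 92.9 CPM for the collagen gene Col1a2 (fibroblasts). They were 1133 and 1831 CPM for Pln, the phospholamban gene of cardiomyocytes, and 51.1 and 39.5 CPM for Pecam1 and 18.4 and 14.8 CPM for Tie1 (endothelium). They were 2.5 and 1.65 CPM for Cnn1 and 15.7 and 11.7 CPM for Myh11 (smooth muscle), 465 and 605 CPM for the globin gene Hbb-bt and 15.7 and 21.4 CPM for Alas2 (erythroid cells), 1.99 and 2.92 CPM for Cnp (Schwann cells) and 4.12 and 3.69 CPM for Wt1 (epicardium). Some of these means rested largely on 1 heart, with overlap between groups. Tcf21 was at 4.27, 2.95 and 12.5 CPM in knockouts and Pln at 991, 1411 and 3090 CPM. Alas2 was at 36.7, 14.1 and 13.4 CPM in knockouts and Hbb-bt at 858, 427 and 530 CPM.

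Likeness of pattern, between genes that share their 6 libraries, was measured as the root mean square difference of centred log2(CPM + 0.5) over the 6 libraries, among all 13717 tested genes. The gene nearest to S100a8 was S100a9 (0.20), followed by Nppb, the natriuretic peptide BNP (0.21), and Twist1, a transcription factor of mesenchymal cells (0.27). Nppb was at 188, 157 and 204 CPM in controls and 435, 504 and 280 CPM in knockouts, so that the hearts of each group ranked as they did for S100a8. Twist1 was at 1.05, 0.921 and 1.72 CPM in controls and 2.85, 2.87 and 2.38 CPM in knockouts. The genes nearest to S100a1 were Ppp1r14c (0.03), Gm21988 (0.05) and Mrps22 (0.05), and those nearest to S100a4 were ENSMUSG00000134613 (0.03), Coq6 (0.04) and Mex3a (0.04). Within the family the closest pairs were S100a4 with S100a13 (0.12), S100a6 with S100a11 (0.19) and S100a6 with S100a13 (0.19), followed by S100a8 with S100a9 (0.20). The measure depends on the size of the differences between hearts, so genes that vary little lie close whatever their order of hearts. Centred values ran from -0.18 to 0.20 for S100a4 and from -1.03 to 1.02 for S100a8. The largest difference was that between S100a8 and S100a11 (0.84).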

How the data were processed

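RNA of 3 control and 3 knockout hearts was sequenced, 1 library per heart. Per the labels' protocols, RNA was extracted with TRIzol and cDNA was primed with anchored oligo(dT), made double-stranded, tagmented and amplified. No strand-marking step is mentioned. The submitters' processing notes list edgeR 4.0.16, Subread 2.1.1 with featureCounts, SAMtools 1.22.1 and STAR 2.7.11, and the mouse build mm39. The sources used here name no annotation release. The authors deposited estimated counts, of which 21.3% to 22.7% of those above 0 in a library were not whole, and CPM computed from the column totals with no scaling between libraries.

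Counts were rounded and tested with edgeR 4.0.16 (quasi-likelihood test, R 4.3.3) with TMM factors, for genes with a deposited CPM of at least 1 in at least 3 libraries (13717 genes). Normalised CPM are scaled by the TMM factors. Adjusted p-values are two-sided Benjamini-Hochberg values over all tested genes, with a threshold of 0.05. SEs were derived from the F statistic. DESeq2 1.42.0, limma-trend (limma 3.58.1) and other scalings, filters and left-out libraries were alternatives. The test was checked on simulated data with the same spread for every gene and no library that stood apart. That check does not cover data with a library such as knockout heart 3. Exact permutation tests used SciPy 1.17.1. Promoter windows were taken from RefSeq (GRCm38.p6) for 7 of the 8 members and exon lengths from GENCODE M21, neither of the build of the counts. Every pair of libraries differed by more than sampling noise. The edgeR p-values rest on the spread between these 6 hearts within their groups, with each gene's estimate drawn towards those of all tested genes.

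The members and lists were chosen with earlier results of these data known. All 8 members are given in full. Of the other lists the counts are given, and by name the 2 tested genes with the smallest p, Anxa2, Ryr2, Atp2a2, Tlr4, Ager, each neutrophil marker with a count, and for S100a1, S100a4 and S100a8 the 3 genes of most similar pattern. Syt1, Lyz2, Gsn, Dcn and the S100 genes below the filter were named in addition. A marker gene that this rule names is not reported here.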

Additional observations from a re-analysis of the deposited data

How the results depend on the processing

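The fold changes of the 8 members kept their sign in 127 of 128 values from 16 alternatives. The exception was S100a11, which turned to -0.18 without knockout heart 3 and reached 0.43 without knockout heart 2. Limma-trend was run on the deposited CPM, which have no scaling between libraries. At the 3 pseudocounts tried it gave 0.27 to 0.31 for S100a4, 0.29 for S100a10 and 0.38 to 0.39 for S100a13. Each was more than 1.5 times the edgeR value with TMM factors. EdgeR without scaling factors gave 0.32, 0.33 and 0.38 for these genes. The S100a8 call with no filter on low values was the only adjusted call of a member. The number of genes called over all genes was 0 with all 6 libraries, 133 with no filter on low values, 15 in DESeq2, 1 in limma-trend with a pseudocount of 1 and 0 to 3 without 1 library. The number with an unadjusted p below 0.05 was 705, 2487 with no filter and 200 to 1745 without 1 library. The cause of these shifts was not tested. Without scaling factors the median log2 fold change of all genes was 0.17 and that of the members 0.48. Correlations of same-numbered deviations from the group mean were -0.11, 0.45 and 0.58, and not every heart correlated best with its own number. With 3 hearts per group these values cannot decide whether heart numbers pair the samples. The edgeR fit with the number as a replicate block called 5 genes and gave 1807 at an unadjusted p below 0.05. At 8 to 61 counts per library the S100a8 level had wide counting intervals, and neutrophil genes of at most 9 counts apart from Mmp9 could not be compared.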
